A study of Mus musculus with 6 samples.

Results

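The 10 genes described here are 4 ligands and 6 receptors of the vascular endothelial growth factor (VEGF) and apelin systems. The ligands are Vegfa, Vegfb, Vegfc and Apln, and the receptors are Kdr, Flt1, Flt4, Nrp1, Nrp2 and Aplnr. They were taken by gene symbol from a table of 31055 genes, and each of the 10 symbols matched 1 row. The cells were EGFP-positive cells sorted from the non-myocyte fraction of C57BL/6 mouse hearts at 3 to 6 months of age and counted with 10x Genomics 3′ single-cell RNA-seq. The Dsp_het group held 3 libraries of genotype Wt1CreERT2:Rosa26mTmG:DspW/F, in which 1 allele of Dsp (desmoplakin, a protein of desmosomes) was floxed, and the control group held 3 libraries of genotype Wt1CreERT2:Rosa26mTmG. Both groups carried Cre under Wt1, a gene of the epicardium, and the mTmG reporter, which turns on membrane EGFP where Cre has acted. Wt1 is also active in some endothelial cells, so EGFP does not single out the epicardial lineage. The labels do not say whether each library came from 1 animal, so p-values measure only the spread between these libraries.

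VEGF-A binds the tyrosine kinase receptors VEGFR1 (Flt1) and VEGFR2 (Kdr). VEGFR2 carries most of the signal for endothelial growth and permeability, and VEGFR1 binds the ligand tightly with weak kinase activity and serves largely as a trap. Of the tyrosine kinase receptors, VEGF-B binds VEGFR1 alone, and VEGF-C binds VEGFR3 (Flt4) and, once processed, VEGFR2. The neuropilins Nrp1 and Nrp2 are co-receptors that also take semaphorins. Apelin, the peptide made by Apln, is typical of sprouting tip cells and acts on the G protein-coupled receptor Aplnr of endothelial cells.

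The promoters of the 3 VEGF receptor genes are shown because their levels correlated over the cell clusters (Pearson's r from 0.87 to 0.96, below), although venous-like cells were low in Kdr and not in Flt1. Each is the RefSeq sequence of GRCm38.p6 from 250 bases before to 50 bases after the RefSeq start of the gene, read 5′ to 3′ on the strand of the gene. For Flt4 that start lies downstream of the gene start in GENCODE M21 (below), so the whole Flt4 window is inside the gene as GENCODE draws it. Capitals mark GGAAG on either strand (CTTCC when read on the strand shown), the core recognised by ETS factors, a family with many endothelial members.

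Kdr promoter, chr5:75978406-75978705, minus strand: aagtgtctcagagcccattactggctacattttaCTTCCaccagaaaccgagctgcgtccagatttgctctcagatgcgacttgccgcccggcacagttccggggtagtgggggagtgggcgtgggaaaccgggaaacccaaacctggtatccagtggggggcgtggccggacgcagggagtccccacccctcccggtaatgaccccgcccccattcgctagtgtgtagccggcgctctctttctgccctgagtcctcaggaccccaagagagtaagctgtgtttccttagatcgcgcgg

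Flt1 promoter, chr5:147725962-147726261, minus strand: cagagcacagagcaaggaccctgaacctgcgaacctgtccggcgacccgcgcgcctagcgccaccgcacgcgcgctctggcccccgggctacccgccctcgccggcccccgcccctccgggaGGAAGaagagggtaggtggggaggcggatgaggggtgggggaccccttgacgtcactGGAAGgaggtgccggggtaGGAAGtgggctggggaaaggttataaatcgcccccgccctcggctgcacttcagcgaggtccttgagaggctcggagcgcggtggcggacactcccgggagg

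Flt4 promoter, chr11:49609429-49609728, plus strand: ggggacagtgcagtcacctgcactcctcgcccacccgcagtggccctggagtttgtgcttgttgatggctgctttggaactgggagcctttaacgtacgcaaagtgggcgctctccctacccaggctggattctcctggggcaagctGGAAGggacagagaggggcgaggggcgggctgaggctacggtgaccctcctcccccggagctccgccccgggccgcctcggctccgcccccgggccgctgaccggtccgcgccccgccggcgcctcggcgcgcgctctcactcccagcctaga

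The core occurred 3 times in the Flt1 window and 1 time each in the Kdr and Flt4 windows. It was found in 71.4% of 32851 mouse promoters of the same length, so its presence is a description of these sequences and does not set the 3 genes apart. Among the 10 promoter windows found for 9 of the members, ACGTG, the core bound by hypoxia-inducible factors, was found on either strand in 1, a window of Vegfa, against 19.6% of all promoters. That window, chr17:46025114-46025413, lies inside the gene, which spans chr17:46016993-46032369 on the minus strand. The Vegfa window at the gene start, chr17:46032328-46032627, had 0 matches. Kdr spans chr5:75932827-75978458 and Flt1 chr5:147561604-147726011, both on the minus strand, and Flt4 spans chr11:49609263-49652739 on the plus strand (GENCODE M21, GRCm38). Nrp1 overlaps Mir1903 on its own strand, and Nrp2 overlaps Gm37121 on its own strand and Gm29083 on the opposite strand. Counting by strand would not separate reads of Mir1903 from those of Nrp1, or reads of Gm37121 from those of Nrp2. Whether the authors' counting used strand is not given in the sources used here. Reads of Gm29083 therefore cannot be told apart from those of Nrp2 either.

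The libraries held 14121977, 10044075 and 10039589 unique molecular identifiers (UMIs, counted molecules) in Dsp_het and 11098436, 7573157 and 17083660 in control. Of 18283 barcodes, 16303 were kept. They were clustered without the 10 genes, and 9821 (60.2%) fell in endothelial-like clusters, although the samples are labelled as epicardial-derived cells. There were 13183 distinct barcodes, and 1689 of them were seen in more than 1 library. A barcode outside the library with most of its UMIs is called a copy here, and copies were 3.94% of endothelial-like, 42.6% of fibroblast-like and 61.8% of epicardial-like cells. Copies carried 0.792%, 6.05% and 11.2% of the UMIs of these classes. Dsp had 18, 15 and 34 UMIs in the Dsp_het libraries, against 15, 18 and 37 in control, or 1.29, 1.56 and 3.75 CPM against 1.40, 2.56 and 2.35 CPM, and the groups overlapped. In epicardial-like cells, where most of its UMIs lay, Dsp was at 7.25, 7.85 and 10.9 CPM in Dsp_het (15, 8 and 18 UMIs), against 10.1, 22.7 and 16.3 CPM in control (5, 9 and 19 UMIs), and the groups overlapped there too. The labels do not say which part of Dsp the floxed allele loses, so 3′ counts do not check the genotype. Xist, which marks female cells, was at 596.3 CPM in Dsp_het library 2 and 492.0 CPM in control library 3 and at most 8.27 CPM elsewhere, and Apln is on the X chromosome.

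Levels below are UMIs per 1000000 UMIs of a class (CPM), summed per library, with mean ± SD over libraries. A level of 1 gene is compared between cells and never with that of another gene. The 3 kinase receptors had their highest mean in endothelial-like cells, with ranges that overlapped those of cardiomyocyte-like cells. Kdr was at 1216, 1156 and 1109 CPM in the Dsp_het libraries and 1406, 1472 and 1154 CPM in the control libraries of this class. Flt1 was at 850.3, 1006 and 1066 CPM in Dsp_het and 955.8, 960.1 and 774.7 CPM in control. Flt4, known from lymphatic endothelium, was at 31.9, 48.3 and 49.9 CPM in Dsp_het, against 38.8, 46.4 and 34.0 CPM in control. For all 3 genes the groups overlapped, and for Kdr control library 3 lay among the Dsp_het libraries. In fibroblast-like cells Kdr averaged 30.3 ± 31.5 CPM and Flt1 21.8 ± 14.5 CPM (n = 6 libraries), with 93.4 CPM of Kdr in control library 3 and at most 26.9 CPM in the other 5. The summed level of 16 endothelial markers in fibroblast-like cells had a median of 1014 CPM (665 to 2854), against 40134 CPM (36585 to 43695) in endothelial-like cells, and none of the 16 was at 0. What these marker counts contribute to the receptor levels of fibroblast-like cells was not tested.

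Pericyte-like and cardiomyocyte-like clusters also held receptor UMIs. Kdr was at 709.8 ± 132.8 CPM in pericyte-like (n = 6) and 1177 ± 296.4 CPM in cardiomyocyte-like cells (n = 5 libraries with at least 20 cells), and Flt1 was at 660.9 ± 94.9 and 753.8 ± 157.2 CPM. The endothelial markers summed to a median of 26101 CPM (23530 to 33738) and 39580 CPM (37778 to 43340) in these 2 classes, with none at 0. The cardiomyocyte markers of the cardiomyocyte-like class summed to a median of 2689 CPM (1494 to 24487), below its endothelial markers. When the 10 genes were allowed into the clustering, 365 cells led by Myh6 and Tnnt2 stayed unnamed, and 31 cells had the name cardiomyocyte-like. The name says that cardiomyocyte genes led the cluster, and does not say that its cells were cardiomyocytes. Per UMI of the endothelial junction gene Pecam1, pericyte-like cells had 1.71 Kdr UMIs and endothelial-like cells 1.77. Flt1 UMIs per Pecam1 UMI were 1.59 ± 0.184 in pericyte-like and 1.32 ± 0.0843 in endothelial-like cells. Kdr UMIs per Flt1 UMI were 1.07 ± 0.108 and 1.35 ± 0.205. Cardiomyocyte-like cells had 1.98 ± 0.422 Kdr UMIs per Pecam1 UMI (n = 6, with the 5 cells of Dsp_het library 1 included). In pericyte-like and cardiomyocyte-like cells the level of the receptors stood beside a high level of other endothelial genes. The part of mixed droplets in it was not tested.

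The neuropilins reached further. Nrp1 was at 796.8 ± 65.8 CPM in endothelial-like, 686.9 CPM in cardiomyocyte-like, 461.8 CPM in pericyte-like, 323.9 CPM in cycling, 249.0 CPM in macrophage-like, 118.6 ± 13.1 CPM in fibroblast-like and 50.6 ± 12.7 CPM in epicardial-like cells. Per Flt1 UMI there were 0.860 Nrp1 UMIs in endothelial-like cells but 7.58 ± 4.63 in fibroblast-like, 3.91 ± 1.82 in macrophage-like and 4.03 ± 2.65 in epicardial-like cells. The ratio was above every endothelial-like library in all 6 libraries of each of the 3 classes. Nrp2 was at 304 CPM in endothelial-like, 291.2 CPM in cardiomyocyte-like, 242 CPM in cycling, 155.1 CPM in pericyte-like, 71.6 CPM in macrophage-like and 43.5 CPM in epicardial-like cells, and lowest in fibroblast-like cells at 16.2 CPM.

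**Figure D1:**
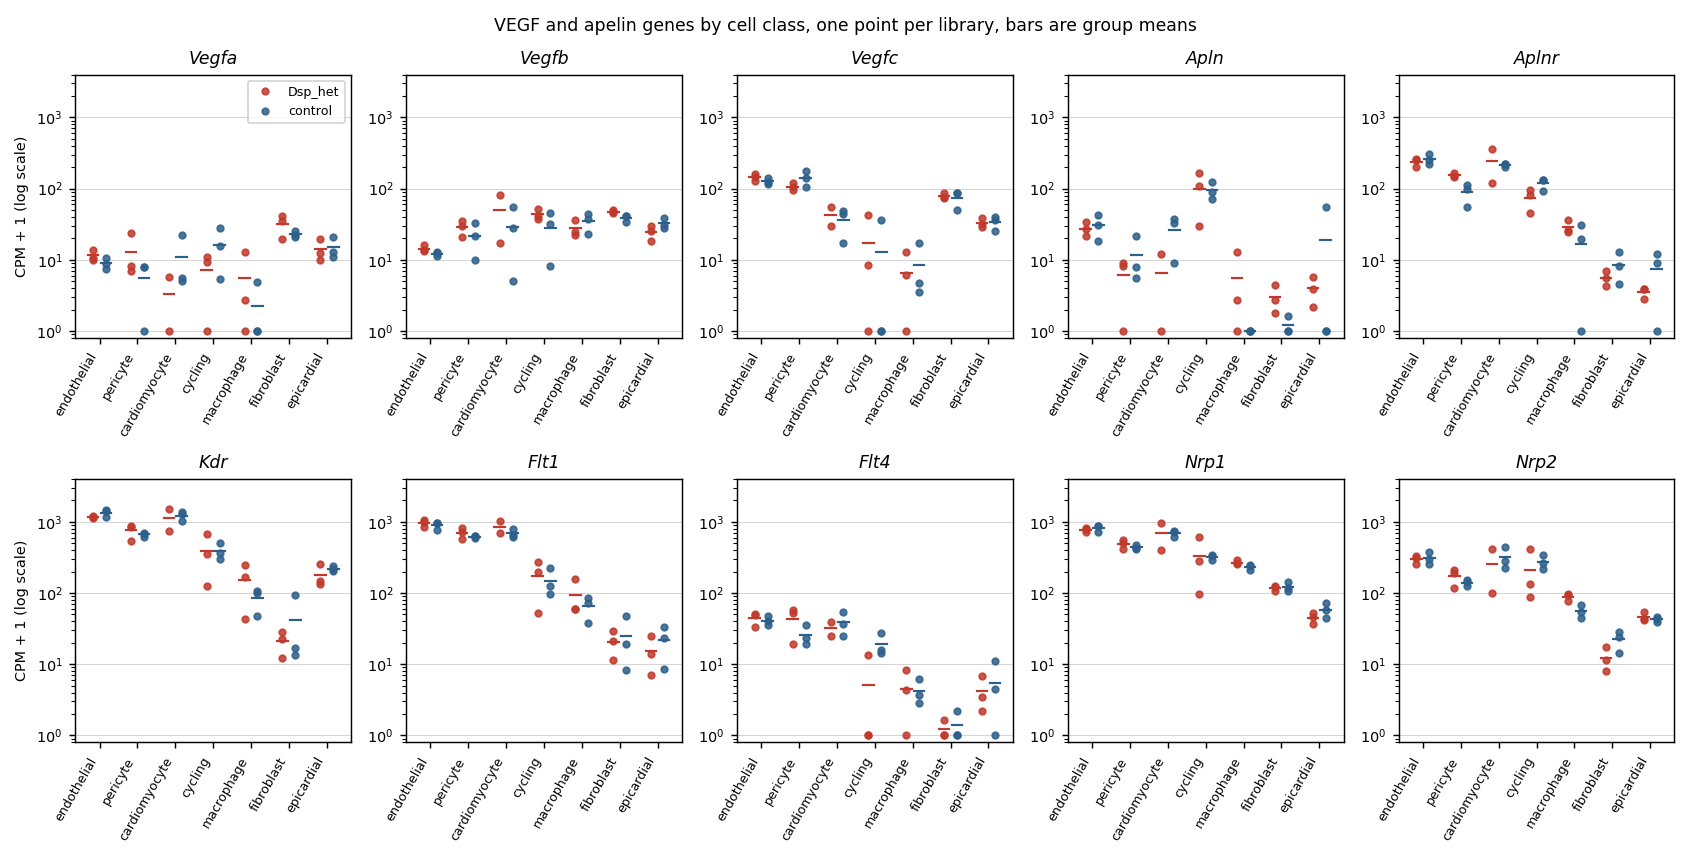
Level of each of the 10 genes by cell class, as CPM on a log axis after adding 1, with 1 point per library and Dsp_het libraries left of control libraries. Bars are group means. The receptors had their highest mean in endothelial-like cells, at 1252 CPM for Kdr, whereas Vegfa and Vegfb stood highest in fibroblast-like cells, at 26.4 and 42.3 CPM.

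The ligands had other sources. Vegfa, the main ligand of VEGFR2, was at 39.7, 18.8 and 34.5 CPM in Dsp_het and 19.8, 21.5 and 24.1 CPM in control fibroblast-like cells, and averaged 26.4 ± 8.64 CPM there, against 13.6 ± 4.76 CPM in epicardial-like and 9.25 ± 2.22 CPM in endothelial-like cells. The fibroblast-like level was above the epicardial-like one in 6 of 6 libraries, although the ranges overlapped. Vegfb was at 42.3 CPM in fibroblast-like, 36.4 CPM in cardiomyocyte-like, 35.2 CPM in cycling, 30.4 CPM in macrophage-like and 27.8 CPM in epicardial-like cells and lowest in endothelial-like cells, at 12.3 CPM. Vegfc took another order. It was at 134.9 ± 15.98 CPM in endothelial-like, 122.2 ± 30.4 CPM in pericyte-like, 75.5 ± 13.9 CPM in fibroblast-like and 32.6 ± 5.83 CPM in epicardial-like cells, and the ranges of the first 2 overlapped. Per Flt1 UMI there were 0.145 Vegfc UMIs in endothelial-like cells and 5.05 in fibroblast-like cells.

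Apln was at 32.7, 20.9 and 25.7 CPM in Dsp_het endothelial-like cells, against 42.2, 17.6 and 29.7 CPM in control. It was higher in cycling cells, at 97.0 ± 45.7 CPM, in 6 of 6 libraries, from 46 Apln UMIs in Dsp_het and 53 in control. The cycling cluster had 231 cells, 1231 UMIs in its median cell and 60.6% copies. Its endothelial markers summed to a median of 13372 CPM (5724 to 15165) and its macrophage markers to 1791 CPM (735 to 5867). Which of its cells held Apln was not tested. In fibroblast-like cells Apln was near 0, at 1.10 CPM. The epicardial-like mean of 10.6 CPM rested on control library 1, where 26 of 27 UMIs lay in 1 cell of 254. The 5 other libraries held at most 4.83 CPM. Aplnr, its receptor, was at 262, 203 and 248 CPM in Dsp_het endothelial-like cells and 303, 251 and 218 CPM in control, and the groups overlapped. It averaged 226.1 ± 87.6 CPM in cardiomyocyte-like (n = 5), 120.2 ± 41.1 CPM in pericyte-like, 95.4 ± 32.5 CPM in cycling and 22.1 ± 12.2 CPM in macrophage-like cells. The lowest levels were 6.06 CPM in fibroblast-like and 4.48 CPM in epicardial-like cells. The endothelial-like and cardiomyocyte-like ranges overlapped.

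Endothelial-like cells held on average 59.9% of the UMIs of a library. They held between 84.4% and 90.1% of the UMIs of each of the 6 receptors, 79.5% of Apln and 78.4% of Vegfc UMIs. For Vegfa and Vegfb the endothelial-like part was below the share of the class in all UMIs, at 48.3% and 36.3%. Fibroblast-like cells held 31.5% of Vegfa and 29.5% of Vegfb UMIs with 14.9% of all UMIs, and epicardial-like cells 11.0% and 12.2% with 10.2% of all UMIs. In single libraries the fibroblast-like part of Vegfa ranged from 18.6% to 58.0%, the highest being Dsp_het library 1, where that class held 33.3% of all UMIs. These parts count sorted EGFP-positive cells and leave out the myocytes, a known main source of VEGF-A in the heart.

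**Figure D2:**
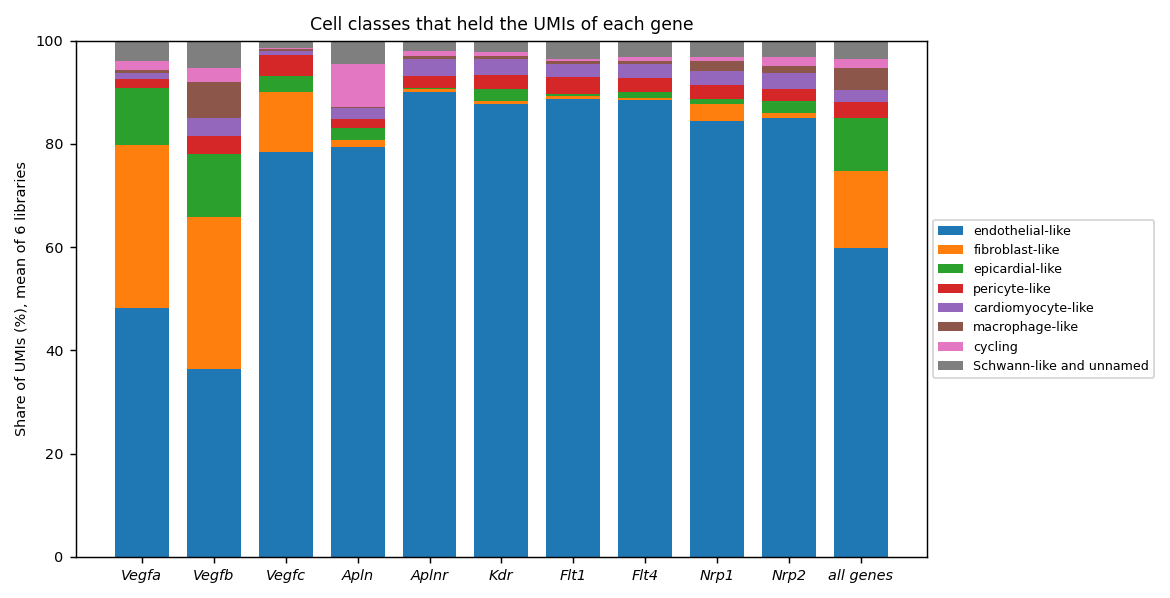
Part of the UMIs of each gene that fell in each cell class, in percent, as the mean over 6 libraries, beside the part of all UMIs. Receptors, Apln and Vegfc lay mostly in endothelial-like cells, and Vegfa and Vegfb were spread, with 31.5% and 29.5% in fibroblast-like cells.

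Epicardial-like cells held more Kdr per Flt1 UMI and per Pecam1 UMI than endothelial-like cells. Kdr was at 131.5, 252.2 and 144.5 CPM in Dsp_het and 201.8, 217.3 and 238.4 CPM in control epicardial-like cells, from 86 to 278 UMIs per library, while Flt1 was at 24.2, 12.8 and 6.05 CPM in Dsp_het and 32.3, 7.58 and 22.3 CPM in control. The groups overlapped for both genes. Kdr UMIs per Flt1 UMI were 5.44, 19.8 and 23.9 in Dsp_het and 6.25, 28.7 and 10.7 in control, against 1.04 to 1.53 in endothelial-like cells. The ratio was higher in epicardial-like than in endothelial-like cells in 6 of 6 libraries, and the value of 28.7 rested on 3 Flt1 UMIs. Per Pecam1 UMI there were 14.1 ± 5.40 Kdr UMIs in epicardial-like cells (n = 5 libraries) and 1.77 ± 0.200 in endothelial-like cells (n = 6). Pecam1 was at 13.9 and 709.6 CPM in these classes, and Wt1, the epicardial factor, at 264.1 and 28.0 CPM. The epicardial-like class joined 2 clusters. One had 509 cells, no copies and 10624 UMIs in the median cell. The other had 1069 cells, 723 UMIs in the median cell and 91.2% copies. The ratio of Kdr to Flt1 averaged 19 (5.21 to 44.6, n = 5 libraries) in the cluster without copies and 6.42 (3.20 to 10.7, n = 5 libraries) in the other. These clusters differ in depth as well as in copies, and the 2 cannot be told apart here. With each barcode kept in 1 library the ratio of the class averaged 16.6 (5.19 to 32, n = 5 libraries). Kdr was not alone in this. Per Flt1 UMI there were 2.73 ± 1.83 Vegfc UMIs in epicardial-like cells and 0.145 ± 0.0139 in endothelial-like cells, and Nrp1 was also higher per Flt1 UMI (above).

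**Figure D3:**
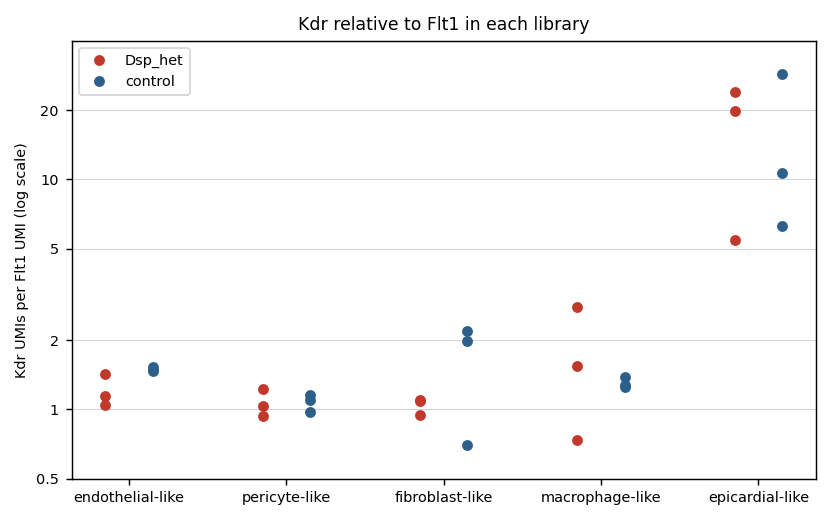
Kdr UMIs per Flt1 UMI by cell class on a log axis, 1 point per library, Dsp_het left of control. Epicardial-like cells lay between 5.44 and 28.7 and endothelial-like cells between 1.04 and 1.53.

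Within the endothelial-like class, 8 clusters were described. The clusters were named where at least 2 markers of a list, members left out, were among the leading genes, as arterial-like (Hey1, Gja4), venous-like (Vwf, Igfbp5, with the lymphatic chemokine gene Ccl21a also leading), capillary-like (Rbp7, Car4), angiogenic-like (Kit, Pgf), interferon-response (Ifit1, Isg15) and stress-response (Egr1, Hspa1a), and 2 were called by their leading genes. The cluster led by Lars2 and Syne1 had 1547 UMIs in its median cell, against at least 3239 in the other 7, and the highest level of Kdr, Flt1, Flt4, Nrp1, Nrp2 and Aplnr, at 2502 ± 295 CPM for Kdr. What its low depth contributes was not tested, and the orders below leave it out.

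Kdr differed between these clusters, most clearly through a low level in venous-like cells. It was at 1824 ± 226 CPM in capillary-like, 1549.8 ± 302.9 CPM in angiogenic-like, 1244 ± 168.8 CPM in arterial-like and 332.5 ± 17.6 CPM in venous-like cells. In venous-like cells Kdr was at 309.7, 346.2 and 330.2 CPM in Dsp_het and 356.0, 336.7 and 316.1 CPM in control, below every other cluster in every library. Between capillary-like and angiogenic-like cells the ranges overlapped. With cells thinned to equal depth (below), the share with a Kdr UMI overlapped between angiogenic-like (85.3% to 93.2%) and arterial-like cells (75.8% to 87.0%). Its median was 88.4% in stress-response cells, 87.8% in interferon-response cells and 72.5% in the cluster led by Cyp26b1 and Timp4. Flt1 did not share the venous-like drop of Kdr. It was at 979.4 ± 146.8 CPM in venous-like cells, between the 1184 ± 180.5 CPM of arterial-like and the 646.3 ± 72.7 CPM of stress-response cells. Flt4 was at 53.4 ± 12.98 CPM in arterial-like, 41.4 ± 8.55 CPM in venous-like and 26.98 ± 7.30 CPM in cells of the cluster led by Cyp26b1 and Timp4, and neighbouring ranges overlapped. Markers of lymphatic cells, in which Flt4 is best known, summed to a median of 497 CPM over the libraries in venous-like cells, with the lymphatic factor Prox1 at a median of 7.28 CPM.

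The neuropilins parted between arterial-like and venous-like cells. Nrp1, known from arteries, was at 959.2 ± 86.5 CPM in angiogenic-like, 708.1 ± 57.1 CPM in arterial-like and 409.9 ± 35.2 CPM in venous-like cells. Arterial-like cells were not the highest in Nrp1. With cells thinned to equal depth (below), the median share with an Nrp1 UMI was 68.7% in arterial-like and 53.9% in venous-like cells. It was 77.5% in capillary-like, 78.6% in angiogenic-like, 76.2% in interferon-response and 76.1% in stress-response cells. The cluster led by Cyp26b1 and Timp4 was at 67.0%. Of these, only the venous-like range over libraries did not overlap the arterial-like one. Nrp2, known from veins and lymphatics, was at 407.0 ± 53.6 CPM in angiogenic-like, 281.4 ± 28.5 CPM in venous-like, 181.1 ± 33.4 CPM in capillary-like and 90.6 ± 11.5 CPM in arterial-like cells. For Nrp2 the ranges of venous-like, capillary-like and arterial-like cells did not overlap.

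Vegfc stood at both ends of the vascular tree. It was at 374.6 ± 35.8 CPM in venous-like and 293.2 ± 50.2 CPM in arterial-like cells, 168.2 ± 24.7 CPM in the cluster led by Cyp26b1 and Timp4, 26.9 ± 4.25 CPM in capillary-like and 9.30 ± 5.64 CPM in angiogenic-like cells. The venous-like level exceeded the arterial-like one in 6 of 6 libraries, with overlapping ranges. Vegfa was low in endothelial-like cells and reached 17.4 ± 9.74 CPM in venous-like cells, against 3.04 ± 2.24 CPM in capillary-like cells. Vegfb was at 19.2 ± 5.45 CPM in venous-like and 7.34 ± 3.43 CPM in capillary-like cells.

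Apln was at 95.3, 42.3 and 75.0 CPM in Dsp_het and 87.1, 53.7 and 120.7 CPM in control angiogenic-like cells, a cluster that was formed without it. It was at 51.4 ± 24.1 CPM in stress-response cells, 4.79 ± 2.57 CPM in capillary-like and 1.69 ± 1.01 CPM in arterial-like cells. Aplnr had a wider reach. It was at 367.0 ± 54.4 CPM in the cluster led by Cyp26b1 and Timp4, 327.7 ± 42.5 CPM in angiogenic-like, 216.9 ± 26.9 CPM in venous-like and 132.5 ± 34.6 CPM in capillary-like cells, and lowest in arterial-like cells at 14.1 ± 8.38 CPM. When the 10 genes were allowed into the clustering, Apln in angiogenic-like cells was at 171.4 CPM and Aplnr in capillary-like cells at 261.3 CPM, while Flt1 in angiogenic-like cells was at 431.1 CPM.

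**Figure D4:**
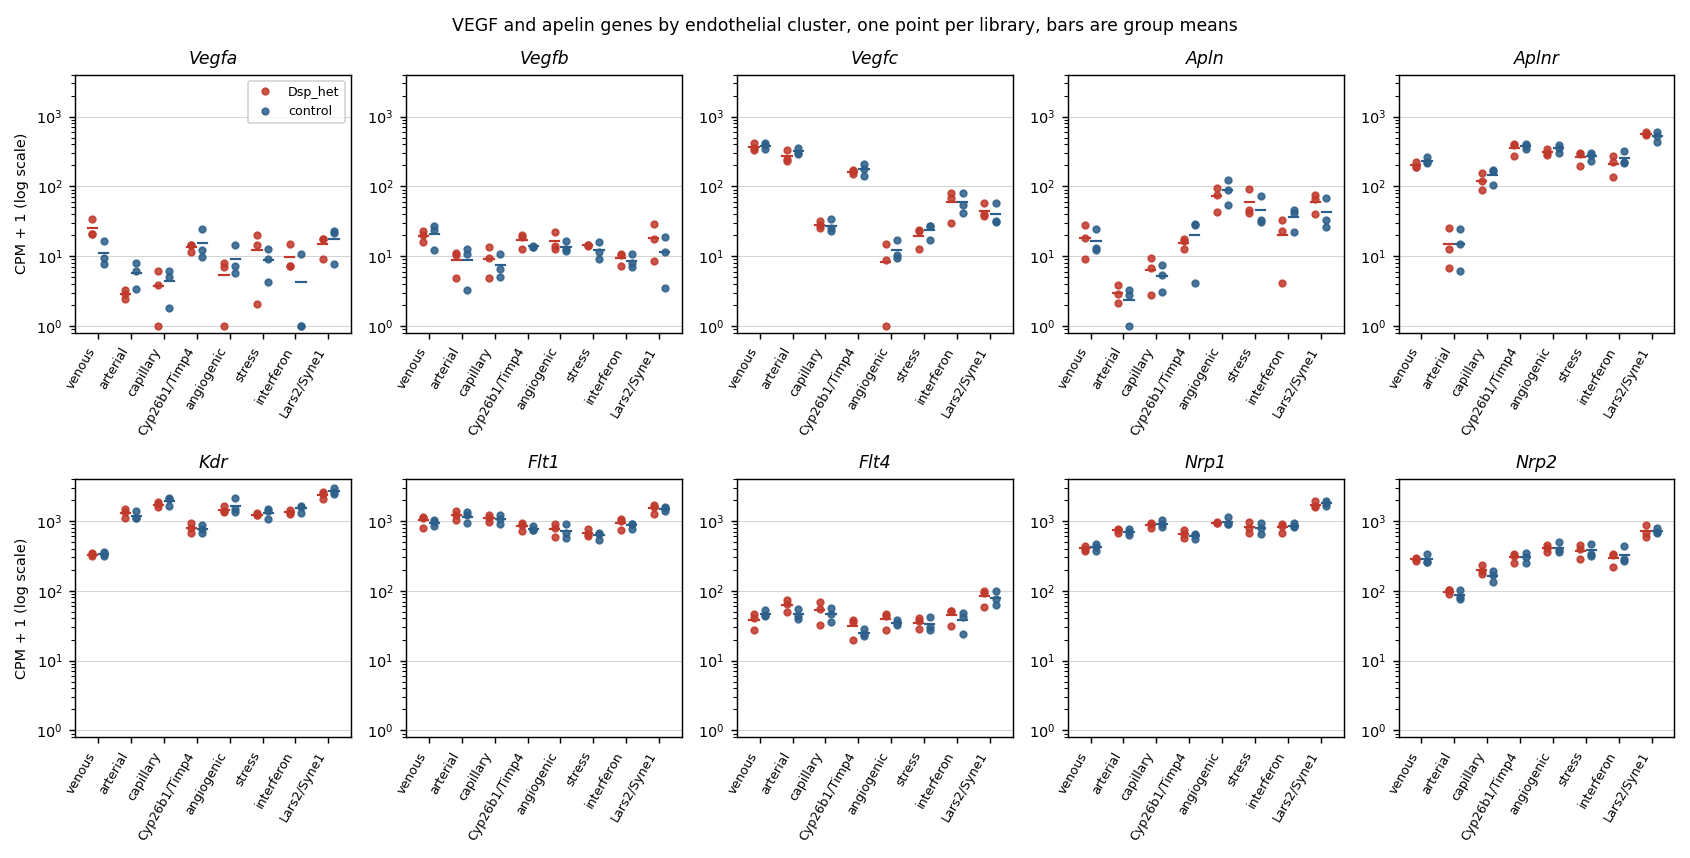
Level of each of the 10 genes by endothelial-like cluster, as CPM on a log axis after adding 1, with 1 point per library and Dsp_het left of control. Bars are group means. Kdr was lowest in venous-like cells (332.5 CPM), Aplnr and Nrp2 in arterial-like cells (14.1 and 90.6 CPM) and Vegfc in angiogenic-like cells (9.30 CPM).

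Shares of cells with a UMI were compared after each cell was thinned to 2000 UMIs and shallower cells were left out. An Apln UMI was found in 3.88%, 1.89% and 3.06% of Dsp_het endothelial-like cells, against 6.24%, 2.61% and 3.59% of control cells. The groups overlapped, with 2.94% ± 0.998 in Dsp_het and 4.15% ± 1.88 in control (SD, n = 3 each, two-sided exact permutation test p = 0.5), and before thinning the means were 5.44% and 6.28%. With 3 libraries a group this exact permutation test cannot go below p = 0.1. Over all libraries, 93 of 1045 angiogenic-like cells held an Apln UMI and 4 of 1222 arterial-like cells did. In fibroblast-like cells 5 of 1185 did, and the source of these UMIs was not tested. Aplnr was found in 34.8%, 25.7% and 30.1% of Dsp_het and 36.0%, 35.4% and 29.9% of control endothelial-like cells (30.2% ± 4.53 in Dsp_het and 33.7% ± 3.38 in control, exact permutation p = 0.3), and in 9 of 1185 fibroblast-like cells. Cells with an Apln UMI held an Aplnr UMI in 46.7%, 44% and 40% of cases in Dsp_het and in 52.9%, 53.8% and 50.8% in control. Other endothelial-like cells did so in 34.3%, 25.3% and 29.8% of cases in Dsp_het and in 34.9%, 34.9% and 29.1% in control. Aplnr was thus found more often beside Apln in 6 of 6 libraries, from 20 to 104 cells with Apln per library. These shares pool all endothelial-like clusters. Aplnr, like Apln, was more frequent in angiogenic-like cells (454 of 1045) than in arterial-like cells (28 of 1222). What the mix of clusters contributes was not tested.

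Over 19 clusters, Pearson's r of mean log2 levels between receptors lay from 0.73, for Flt4 with Aplnr, to 0.96. It was 0.96 between Flt1 and Flt4, 0.91 between Kdr and Flt4 and 0.87 between Kdr and Flt1, and 0.89 between Aplnr and Nrp2. Of ligands with their receptors, Apln with Aplnr, at 0.75, lay within the range of the receptor pairs. The value was 0.32 for Vegfc with Flt4, 0.12 for Vegfc with Kdr, -0.36 for Vegfa with Kdr and -0.71 for Vegfb with Kdr. These values describe clusters that share libraries and differ in depth. Among 11953 genes, the one most like Flt1 was Ptprb (r = 0.99), a phosphatase of the endothelial surface, followed by Tie1 and Epas1. The most like Kdr was the ephrin gene Efna1 (0.96), the most like Nrp1 was the semaphorin receptor gene Plxnd1 (0.97), and the most like Aplnr was the adenosine receptor gene Adora2a (0.96). The closest to Nrp2 was Dock4 (0.96) and to Flt4 Fzd6 (0.98). The 3 most like Apln were Tnfaip8l1 (0.90), Lrrn1 (0.90) and Kit (0.88), and the most like Vegfc was Slc27a3 (0.81). For Vegfa and Vegfb the closest genes, Vcam1 and Mpnd, reached 0.88 and 0.84.

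Whether the levels differed with the Dsp_het genotype was asked first in sums over all cells, where fewer cells of a type and less RNA per cell cannot be told apart. Here edgeR's quasi-likelihood test with Benjamini-Hochberg adjustment called 5 of 13149 genes, all higher in Dsp_het and none a member (0.038% of genes). Kdr was at 638.2, 839.7 and 651.1 normalized CPM in Dsp_het and 1044, 1089 and 895.6 normalized CPM in control, and all Dsp_het libraries lay below all control libraries. The log2 fold change was -0.51 (SE 0.15), which missed the threshold in edgeR (adjusted p = 0.189) and passed it in DESeq2 (adjusted p = 0.0257). Nrp1 was at 462.5, 528.6 and 480.9 normalized CPM in Dsp_het, against 670.9, 657.9 and 581.9 in control, a log2 fold change of -0.38 (SE 0.11; edgeR adjusted p = 0.205, DESeq2 0.0445). Aplnr was at 132.8, 142.9 and 139.5 normalized CPM in Dsp_het, against 222.1, 181.3 and 165.8 in control, a log2 fold change of -0.46 (SE 0.13; edgeR adjusted p = 0.191, DESeq2 0.0478). In both genes the groups stood apart. Nrp2 was at 180.6, 188.4 and 189.6 normalized CPM in Dsp_het, against 291.8, 223 and 203.7 in control, also apart (log2 fold change -0.36, SE 0.15, edgeR adjusted p = 0.325). Groups apart with Dsp_het lower were found in 8.31% of genes tested. DESeq2 called 465 of 12887 genes, 51 of them lower (0.396%).

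The groups of the other 6 members overlapped in all cells. Vegfa was at 23.3, 9.74 and 12.2 normalized CPM in Dsp_het and 10.7, 9.15 and 8.78 in control, with a log2 fold change of 0.67 (SE 0.31, edgeR adjusted p = 0.386) that was 0.20 without Dsp_het library 1. The log2 fold change was 0.37 (SE 0.17) for Vegfb, -0.55 (SE 0.27) for Apln, -0.21 (SE 0.18) for Flt1, -0.19 (SE 0.23) for Flt4 and 0.02 (SE 0.12) for Vegfc, with edgeR adjusted p between 0.383 and 0.976. Over the 10 members 3 were higher and 7 lower, with a median of -0.29, against -0.01 over all genes tested. The class shares stood beside these values, and their part in them was not tested. Endothelial-like cells held 46.8%, 65.2% and 48.4% of the UMIs of the Dsp_het libraries and 72.1%, 67.0% and 59.7% of the control libraries (53.5% ± 10.2 in Dsp_het and 66.3% ± 6.22 in control, exact permutation p = 0.2). Of the cells they were 54.6% ± 4.04 in Dsp_het and 65.2% ± 5.03 in control, with the groups apart (exact permutation p = 0.1). Of 16 endothelial markers 16 were lower in Dsp_het in all cells and 0 passed, with a median log2 fold change of -0.32. Fibroblast-like cells, the class with the highest Vegfa and Vegfb, held 19.6% ± 11.9 of the UMIs in Dsp_het and 10.2% ± 0.231 in control, with the groups apart (exact permutation p = 0.1). Epicardial-like cells held 14.6% ± 3.83 of the UMIs in Dsp_het and 5.88% ± 1.40 in control, also apart (exact permutation p = 0.1).

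Within endothelial-like cells edgeR called 0 of 11211 genes (0.0%), with 558 (4.98%) at an unadjusted p under 0.05, and DESeq2 called 16, none a member. Kdr was at 1217, 1168 and 1101 normalized CPM in Dsp_het and 1360.3, 1449 and 1220.2 in control. The groups were apart by a narrow gap, as in 3.84% of genes, and the log2 fold change was -0.21 (SE 0.12, edgeR adjusted p = 1.00). Kdr was the only member whose groups were apart in this class, and in CPM without this normalization its groups overlapped (above). Vegfa was at 12.9, 9.18 and 9.72 normalized CPM in Dsp_het and 9.39, 7.51 and 6.74 in control, with a log2 fold change of 0.43 (SE 0.21), and the groups overlapped. The log2 fold change was 0.22 (SE 0.17) for Vegfb, 0.19 (SE 0.12) for Vegfc, 0.13 (SE 0.16) for Flt4, 0.12 (SE 0.12) for Flt1, -0.04 (SE 0.14) for Nrp2 and -0.20 (SE 0.24) for Apln. Nrp1 at -0.08 (SE 0.11) and Aplnr at -0.11 (SE 0.13) were closer to 0 than in all cells. The adjusted p of all 10 in edgeR was 1.00. Over the 10 members 5 were higher and 5 lower, with a median of 0.04.

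**Figure D5:**
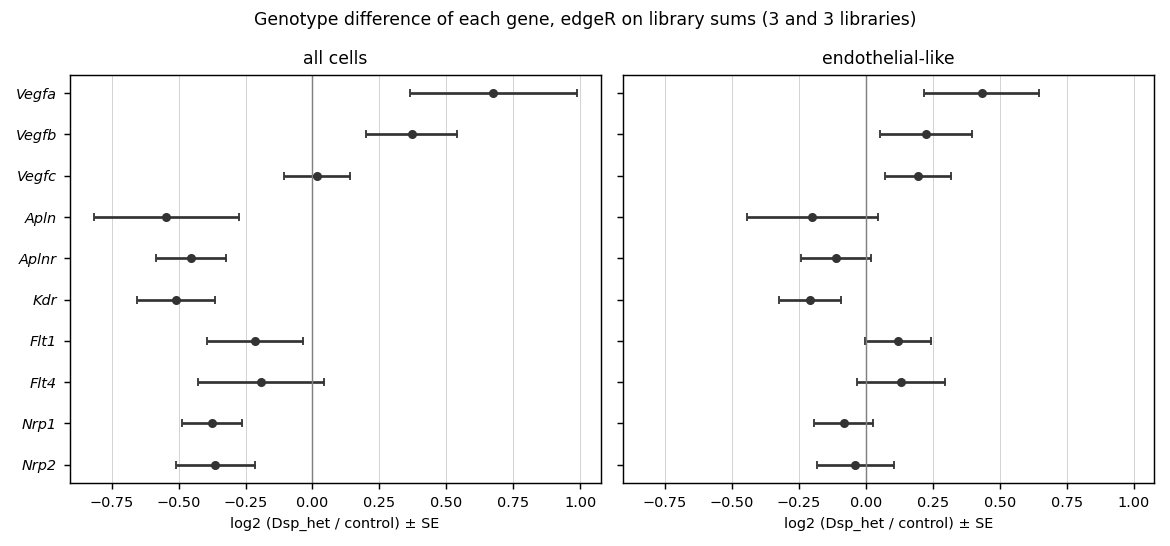
Log2 fold change (Dsp_het over control) of the 10 genes from edgeR, in sums over all cells and within endothelial-like cells. Each point is 1 gene and bars are SE. In all cells 3 genes were higher and 7 lower in Dsp_het, and within endothelial-like cells 5 were higher and 5 lower.

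The balance of the 2 VEGF-A receptors in endothelial-like cells was also taken as a ratio, which does not depend on library size. Kdr UMIs per Flt1 UMI were 1.43, 1.15 and 1.04 in Dsp_het and 1.47, 1.53 and 1.49 in control. All Dsp_het libraries lay below all control libraries, with Dsp_het library 1 close to them, and the means were 1.21 ± 0.201 in Dsp_het and 1.498 ± 0.0317 in control (exact permutation p = 0.1, 0.3 after Benjamini-Hochberg adjustment over 6 ratios). Venous-like cells, low in Kdr but not in Flt1, made up 11.99%, 11.7% and 20.2% of Dsp_het and 9.03%, 5.66% and 6.26% of control endothelial-like cells (14.6% ± 4.85 in Dsp_het and 6.98% ± 1.79 in control, exact permutation p = 0.1). Without the venous-like cluster the ratio was 1.62, 1.29 and 1.32 in Dsp_het and 1.63, 1.63 and 1.59 in control. The groups overlapped through Dsp_het library 1 alone. The means were 1.41 ± 0.183 in Dsp_het and 1.62 ± 0.0238 in control (exact permutation p = 0.2, adjusted 0.6). What the venous-like share contributes to the ratio was not tested. Flt1 UMIs per Pecam1 UMI were 1.38 ± 0.0770 in Dsp_het and 1.26 ± 0.0287 in control, with the groups apart (exact permutation p = 0.1, 0.3 after adjustment over the 6 ratios). They stayed apart without the venous-like cluster, at 1.36 ± 0.0785 in Dsp_het and 1.24 ± 0.0308 in control (exact permutation p = 0.1, adjusted 0.6). Kdr UMIs per Pecam1 UMI overlapped, at 1.66 ± 0.234 in Dsp_het and 1.88 ± 0.0829 in control (exact permutation p = 0.3).

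In the smaller classes and clusters no member passed edgeR's test with its filter on low counts. The shares of genes called were 0.0114% in fibroblast-like, 0.0% in epicardial-like, 0.0133% in arterial-like, 0.0388% in venous-like, 0.0% in capillary-like and 0.0% in angiogenic-like cells. At an unadjusted p under 0.05 in edgeR there was 1 member in fibroblast-like (Nrp2), 1 in venous-like (Vegfa) and 0 in each of the other 4. Of all genes tested, 3.12% in fibroblast-like, 3.4% in epicardial-like, 3.95% in arterial-like, 3.88% in venous-like, 3.58% in capillary-like and 3.77% in angiogenic-like cells were at this threshold. Vegfa in venous-like cells was at 35.6, 19.97 and 20.1 normalized CPM in Dsp_het and 15.8, 8.36 and 7.21 in control, from 37, 16 and 22 UMIs in Dsp_het and 14, 3 and 5 in control. The groups were apart, as in 4.44% of genes with Dsp_het higher, and the log2 fold change was 1.17 (SE 0.38, edgeR adjusted p = 0.999). Lymphatic markers in these cells summed to 215, 616 and 15.5 CPM in Dsp_het and 379, 985 and 1154 CPM in control, and their part in this was not tested. Nrp2 in fibroblast-like cells was at 11.1, 16.4 and 6.87 normalized CPM in Dsp_het and 13.4, 23.8 and 27.8 in control, from 77 UMIs in Dsp_het and 75 in control. The groups overlapped, with a log2 fold change of -0.94 (SE 0.33, edgeR adjusted p = 1.00). The difference between that value and the endothelial-like one was -0.94 (SE 0.34, edgeR adjusted p = 0.943), in a test that called 0 of 11256 genes (0.0%). For epicardial-like against endothelial-like cells the same test called 0.00888% of genes and no member. There the smallest p among members was that of Aplnr, with a difference of -1.61 (SE 0.65, edgeR adjusted p = 0.877). Kdr in epicardial-like cells had a log2 fold change of -0.32 (SE 0.21). Among the 7 members tested in fibroblast-like cells, Vegfb alone had groups apart, at 46.7, 49.1 and 45.5 normalized CPM in Dsp_het, against 33.1, 41.6 and 41.7 in control, as in 4.17% of genes with Dsp_het higher (log2 fold change 0.28, SE 0.17). Kdr in this class, with a log2 fold change of -1.14 (SE 0.56), turned on control library 3 and was at 0.57 without it. It was called only without the filter on low counts (edgeR adjusted p = 0.000309), as was Apln in epicardial-like cells (edgeR adjusted p = 0.0127), where 26 of 27 UMIs of control library 1 lay in 1 cell. The other members tested had log2 fold changes between -0.51 and 0.13 in epicardial-like, -0.25 and 0.43 in arterial-like, -0.34 and 0.10 in venous-like, -0.24 and 0.31 in capillary-like and -0.31 and 0.15 in angiogenic-like cells.

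The partners and targets of the 2 systems were counted by list. In all cells 0 members passed edgeR's test in any of 5 lists. In these sums the 16 endothelial markers were all lower in Dsp_het (median log2 fold change -0.32, against -0.01 over all genes tested). What the class shares contribute to the lists was not tested. Among 29 genes induced by VEGF or typical of tip cells 8 were higher and 21 lower in Dsp_het (median log2 fold change -0.26). The 2 smallest p-values were those of Unc5b, a netrin receptor of tip cells, at -0.62 (SE 0.09, edgeR adjusted p = 0.0693), and the protocadherin gene Pcdh17, at -0.65 (SE 0.10, edgeR adjusted p = 0.0736). Among 32 genes of VEGF receptor signalling 9 were higher and 23 lower, with a median of -0.10, and the exchange factor gene Vav3 was at -0.47 (SE 0.11, edgeR adjusted p = 0.135) and the kinase gene Prkca at 0.88 (SE 0.25, edgeR adjusted p = 0.187). Of 26 ligand and receptor partners 14 were higher and 12 lower, with a median of 0.16. Sema3d, a semaphorin, was at 1.13 (SE 0.17, edgeR adjusted p = 0.0693) and the semaphorin receptor gene Plxnd1 at -0.58 (SE 0.11, edgeR adjusted p = 0.0857). Of 20 hypoxia genes 12 were higher and 8 lower (median 0.03), led by the carbonic anhydrase gene Car9 at 0.94 (SE 0.32) and the oxygen sensor gene Egln3 at 0.76 (SE 0.26), both with an edgeR adjusted p of 0.257. Of 19 genes of apelin receptor signalling 7 were higher and 12 lower (median -0.06). Here the matrix protease gene Mmp3 was at 2.17 (SE 0.33, edgeR adjusted p = 0.0719) and the transcription factor gene Mef2c at -0.38 (SE 0.13, edgeR adjusted p = 0.245).

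Within endothelial-like cells 0 genes of the 5 lists passed as well. Tip-cell and VEGF-induced genes were 6 higher and 22 lower of 28 (median log2 fold change -0.13, against 0.00 over all genes). The smallest p-values belonged to the homeobox gene Hlx, at -0.47 (SE 0.12, edgeR adjusted p = 0.438), and to Plvap, which makes the diaphragms of fenestrated and venous endothelium, at 1.16 (SE 0.37, edgeR adjusted p = 0.623). Of 29 receptor signalling genes 13 were higher and 16 lower (median -0.02), of 21 partners 11 and 10 (0.00), of 18 hypoxia genes 12 and 6 (0.05) and of 17 apelin receptor signalling genes 6 and 11 (-0.06). The 2 smallest p-values of these lists belonged to Vav3 at -0.31 (SE 0.10) and the chaperone gene Hsp90aa1 at -0.33 (SE 0.15), Sema3d at 0.76 (SE 0.28) and Plxnd1 at -0.27 (SE 0.13), the metabolic kinase gene Pdk1 at 0.59 (SE 0.18) and Egln3 at 0.53 (SE 0.27), and Klf4, a flow-responsive factor, at 0.31 (SE 0.13) and the nitric oxide synthase gene Nos3 at 0.24 (SE 0.13). The adjusted p of these 8 in edgeR was at least 0.555.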

How the data were processed

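Raw UMI counts per gene and barcode were deposited by the authors as 1 matrix of all 6 libraries, and its column sums equalled the deposited totals for all 18283 barcodes. The submitters' processing notes name GRCm38 and Seurat. No source used here names the aligner. Barcodes were assigned to libraries by suffix, as given in each sample's description. Barcodes with at least 500 UMIs, 200 genes and at most 20% mitochondrial UMIs were kept. Scrublet called 35 doublets, too few for doublet removal to have worked, and these were left out. Cells were clustered in scanpy (1.11.5) from 2000 variable genes without the members (30 components, 15 neighbours, Leiden resolution 1.0, seed 0). Classes were named from marker lists, and a lineage name within endothelial-like cells needed 2 leading markers, a rule set after the clusters had been seen. A class was used in a library with at least 20 cells.

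Counts were summed per library and fitted with edgeR (4.0.16, TMM, filterByExpr with a minimum count of 10), with adjusted p under 0.05 as the threshold. DESeq2 (1.42.0) was the alternative test. The fit was tested on simulated data. For shares and ratios the test was an exact permutation of the libraries (two-sided). Likeness was Pearson's r of mean log2(CPM + 10) over 19 clusters, and the closest of 11953 genes are named. Of each pathway list the members that passed were to be named, or otherwise the 2 with the smallest p. The receptor ratios were chosen after values had been seen. The members and lists were chosen with earlier results of these data known.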

Additional observations from a re-analysis of the deposited data

How the results depend on the processing

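No member passed the edgeR threshold under other size factors, the replicate block, 1 library per barcode, a stricter cell filter, clustering with the members or with 1 library left out. DESeq2 moved Kdr, Nrp1 and Aplnr in all cells past it, and leaving out the filter on low counts moved Kdr in fibroblast-like and Apln in epicardial-like cells. Numbers of genes called depended more on the setting than the members did, and the cause was not tested. In all cells 5 became 465 under DESeq2, 203 without the filter on low counts and 0 under the replicate block, 1 library per barcode or stricter cell filter. Leaving out 1 library gave 0 to 330, the highest without Dsp_het library 2. In endothelial-like cells 0 became 16 under DESeq2, 213 without the filter and 18 under the block, and 0 to 17 with 1 library left out. In fibroblast-like cells 1 became 2, 103 and 6 under the same 3 settings (0 to 4 with 1 library left out). In arterial-like cells 1 became 0, 21 and 11 (0 to 7). In venous-like cells 3 became 34 without the filter, 1 under the block, 1 library per barcode or clustering with the members, and 0 under the stricter cell filter (0 to 13). In capillary-like cells 0 became 18 without the filter, 7 under the block, 1 under DESeq2's size factors or 1 library per barcode and 3 under clustering with the members (0 to 6). In angiogenic-like cells 0 became 14 without the filter and 10 under the block (0 to 4), and in epicardial-like cells 42 without the filter (0 to 2). The interaction counts of 0 and 1 ranged from 0 to 2 for fibroblast-like and from 0 to 9 for epicardial-like cells, and the epicardial-like count was 0 with 1 library per barcode.

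Log2 fold changes near 0 changed sign. Vegfc in all cells was at -0.00077 under the stricter cell filter and from -0.073 (without control library 1) to 0.077 with 1 library left out. Flt4 in all cells ranged from -0.44 to 0.047 (without Dsp_het library 1). Within endothelial-like cells Nrp2 ranged from -0.13 to 0.11 (without control library 1), with 0.05 without Dsp_het library 2, and Apln from -0.45 to 0.080 (without control library 1). The log2 ratio of the angiogenic-like share ranged from -0.23 to 0.44, with 0.07 without Dsp_het library 2 and 0.05 without Dsp_het library 3. The other shares kept their direction, between -0.74 and -0.08 for cells with Apln, -0.27 and -0.06 for Aplnr, -0.35 and -0.05 for arterial-like, 0.03 and 0.29 for capillary-like and 0.76 and 1.29 for venous-like cells.

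Replicate numbers did not pair the samples: deviations of same-numbered libraries correlated at 0.03, -0.06 and -0.07 in all cells, so the numbers are names only. Of the class and cluster levels, 148 of 150 moved by less than 1 SD with 1 library per barcode, and 102 of 120 when the members entered the clustering. Vegfa, with 839 UMIs over all 6 libraries, had the fewest counts.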

Other observations

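Ligands outside the 10 genes filled in the sources. Vegfd, a further ligand of VEGFR3, was at 177.5 ± 60 CPM in fibroblast-like cells, 23.9 ± 5.32 CPM in epicardial-like cells and 0.808 CPM in endothelial-like cells (SD, n = 6 libraries). Pgf, the placental growth factor, binds VEGFR1 alone of the tyrosine kinase receptors. It was at 58.1 ± 11.0 CPM in angiogenic-like cells, which it helped to name, and at 57.8 ± 52.9 CPM in cycling cells, from 54 UMIs. Its level was 35.4 ± 12.2 CPM in fibroblast-like, 30.7 ± 16 CPM in pericyte-like and 0.161 CPM in epicardial-like cells. Apela, the other peptide ligand of the apelin receptor, was found in epicardial-like cells at 3.08 ± 4.25 CPM and had no UMI in endothelial-like, fibroblast-like, pericyte-like or macrophage-like cells.

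A cluster of 295 cells that stayed unnamed was led by Cytl1, Plvap, Vwf and Npr3, genes known from endocardium. Pooled over libraries it held Kdr at 262.9 CPM, Flt1 at 564.9 CPM, Nrp1 at 458.7 CPM and Aplnr at 13 CPM, and Vegfb at 44.1 CPM. Its median depth was 1000 UMIs and 53.9% of its cells were copies, so these values describe few molecules. A second unnamed cluster of 882 cells, led by the haemoglobin genes Hbb-bs and Hba-a1, held Kdr at 959.0 CPM and Apln at 57.3 CPM, with a median of 722.5 UMIs.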
